A study of Homo sapiens with 12 samples.

Results

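The EGR, NR4A and IER immediate early genes are 9 genes: EGR1, EGR2, EGR3, NR4A1, NR4A2, NR4A3, IER2, IER3 and IER5. They were taken as every probe set annotated to exactly 1 of them, and where a gene had several, the one of highest average value across all 12 arrays stood for it. This gave 8 genes with 16 probe sets, out of 19775 genes on the arrays. EGR2 was not analysed here. Of the 8 genes, 6 lay over log2 4 on at least 3 arrays and were tested, as were 11184 genes in all. The tested members were EGR1, NR4A1, NR4A2, IER2, IER3 and IER5. EGR3 and NR4A3 stayed near background and are described by their values.

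RNA came from HK-2 cells, a single immortalised epithelial line from the human kidney proximal tubule, and was measured on 12 Affymetrix arrays, 3 for each of 4 groups. The groups were a high dose of the compound labelled Aa for 24 h, its vehicle control for 24 h, Aa for 48 h and its vehicle control for 48 h. The sources used here state neither the dose nor the identity of Aa, and name no vehicle or scan batch. All groups grew in a medium supplemented with epidermal growth factor, hydrocortisone, insulin, transferrin and selenite, so growth factor was present in control cells too. In such bulk RNA, fewer cells with a transcript and less of it per cell cannot be told apart.

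Immediate early genes are switched on by growth factors, stress or calcium without new protein synthesis, and their transcripts are usually short-lived. EGR proteins are zinc finger transcription factors whose genes are driven through serum response factor and ERK-activated ETS factors, and whose activity is restrained by the corepressors NAB1 and NAB2. NR4A proteins (NUR77, NURR1 and NOR1) are orphan nuclear receptors, induced strongly by cyclic AMP and CREB, that act without a classical ligand. IER2, IER3 and IER5 are unrelated to those families. IER2 encodes a small nuclear protein, IER3 a stress protein linked to apoptosis and NF-kB, and IER5 a target and activator of heat shock factor 1. In the kidney, EGR1 is known as an early responder to tubular injury.

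The promoters of EGR1, IER2 and IER5 are printed because EGR1 moved in the opposite direction to IER2 and IER5 at 24 h, as described below. Each is the 250 bases before the transcript start in RefSeq (GRCh38.p14), 5′ to 3′ on the plus strand. Capitals mark every match, on either strand, to the motifs searched: the CArG box bound by serum response factor, the half-site TGACG and full site TGACGTCA bound by CREB, the EGR sites GCGTGGGCG and GCGGGGGCG, the NR4A monomer site AAAGGTCA, the heat shock element GAANNTTC and the box TATAAA.
EGR1 (chr5:138465229-138465478): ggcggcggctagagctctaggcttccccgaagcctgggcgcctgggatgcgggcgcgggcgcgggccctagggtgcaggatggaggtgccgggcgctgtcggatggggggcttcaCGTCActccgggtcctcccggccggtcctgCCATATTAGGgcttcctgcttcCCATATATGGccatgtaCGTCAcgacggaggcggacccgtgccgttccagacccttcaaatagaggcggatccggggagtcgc
IER2 (chr19:13150161-13150410): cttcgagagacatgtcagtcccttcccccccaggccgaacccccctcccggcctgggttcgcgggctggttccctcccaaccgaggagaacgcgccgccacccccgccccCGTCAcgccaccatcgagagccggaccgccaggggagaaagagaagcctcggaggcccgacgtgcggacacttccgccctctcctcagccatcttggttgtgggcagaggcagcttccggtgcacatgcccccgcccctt
IER5 (chr1:181088450-181088699): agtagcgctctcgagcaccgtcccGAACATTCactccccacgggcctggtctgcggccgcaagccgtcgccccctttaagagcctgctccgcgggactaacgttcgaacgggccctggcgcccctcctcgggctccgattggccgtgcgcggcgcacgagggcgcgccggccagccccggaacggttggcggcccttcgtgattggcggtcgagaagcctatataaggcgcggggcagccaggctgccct
The EGR1 window held 2 CArG boxes, starting 105 and 83 bases before the transcript start, and 2 CREB half-sites starting 135 and 66 bases before it. A CArG box was present in 1.16% of all 35116 windows of this length. IER2 held 1 half-site and no CArG box. IER5 held 1 heat shock element, starting 226 bases before the start, a match found in 5.78% of windows. RefSeq promoter entries matched 6 of the 9 genes. NR4A3 held 4 CREB half-sites, a motif found in 21.2% of windows, and the 2 windows of NR4A1 held none of the motifs. A full CREB site was in 1.65% of windows, the EGR sites in 0.72% and 4.72%, the NR4A site in 1.05% and TATAAA in 10.7%, and none of them was in the windows of EGR1, NR4A1, NR4A3, IER2 or IER5. These matches describe the letters of the windows and were not tested for binding.

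All values below are the authors' GCRMA values on a log2 scale, so 1 unit is a doubling, and values under log2 4 are treated as background. Levels of different genes come from different probes and are not compared with each other. Pearson's r between arrays ranged from 0.994 to 0.997 within groups and from 0.949 to 0.975 between Aa and control. The 3' minus 5' difference of the actin and GAPDH control probe sets, a measure of RNA integrity, averaged 0.394 for Aa and 0.306 for control at 24 h, and 0.542 for Aa and 0.319 for control at 48 h; its part in the results was not tested. Of 10 kidney epithelial markers, KRT8, KRT18, KRT19, PAX8, CDH6 and CDH2 were over log2 4 on every array, whereas PAX2, ANPEP, GGT1 and MME did not reach the filter. All 4 leukocyte markers (PTPRC, CD3E, CD14 and ITGAM) were under log2 4 on every array, as were 4 of 5 endothelial markers (PECAM1, CDH5, VWF and KDR), while TEK read 3.86 to 4.61. Of 7 markers of the differentiated proximal tubule only SLC3A1 was over log2 4 on at least 3 arrays, and among 6 fibroblast markers COL1A1, DCN and LUM were. The summed linear level of the 10 epithelial markers was 17100 to 20800 in Aa cells and 31800 to 33800 in control cells at 24 h, and 15300 to 20500 in Aa cells and 22800 to 28800 in control cells at 48 h. That of the differentiated tubule list was 130 to 180 in Aa cells and 409 to 611 in control cells at 24 h, and 83.6 to 200 in Aa cells and 564 to 1250 in control cells at 48 h. The summed linear level of the fibroblast list was 3690 to 5220 in Aa cells and 4910 to 6960 in control cells at 24 h, and 4160 to 4840 in Aa cells and 4650 to 5550 in control cells at 48 h. The part of these marker differences in the results below was not tested.

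The comparison of Aa with vehicle asked which immediate early genes differed after 24 h and after 48 h of exposure. At 24 h, NR4A1, NR4A2, IER2, IER3 and IER5 were higher in Aa cells and EGR1 was lower. At 48 h the same 5 genes were higher, by 3.03-fold (IER2) to at least 12.5-fold (NR4A2), and EGR1 did not pass the test against control. Thus 5 of 6 tested members rose at 24 h, where 26.3% of all tested genes rose, and 1 fell, where 22.8% fell (49.1% in either direction). At 48 h 5 of 6 rose, where 30.6% of all tested genes rose, and 0 fell by limma, also at an unadjusted p under 0.05 and under every alternative, where 33.9% of all tested genes fell (64.5% in either direction). These all-gene shares depend on the scaling: with the arrays scaled to spiked-in hybridisation controls, 14.9% of all tested genes rose and 34.5% fell at 24 h, and 16.2% rose and 52.7% fell at 48 h. The same 5 members were called higher at both times, as were 20.1% of all tested genes. Aa and control values did not overlap for 6 of 6 members at 24 h and 5 of 6 at 48 h, against 59.8% and 69.1% of all tested genes. Both comparisons were made with limma across all 11184 genes, with Benjamini-Hochberg adjustment. Every tested member passed log2 4 on 3 or more of the 6 control arrays, so none entered the test through the Aa arrays alone. The median log2 change of the tested members was 0.92 at 24 h and 2.23 at 48 h, against 0.023 and -0.025 for all tested genes.

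**Figure D1:**
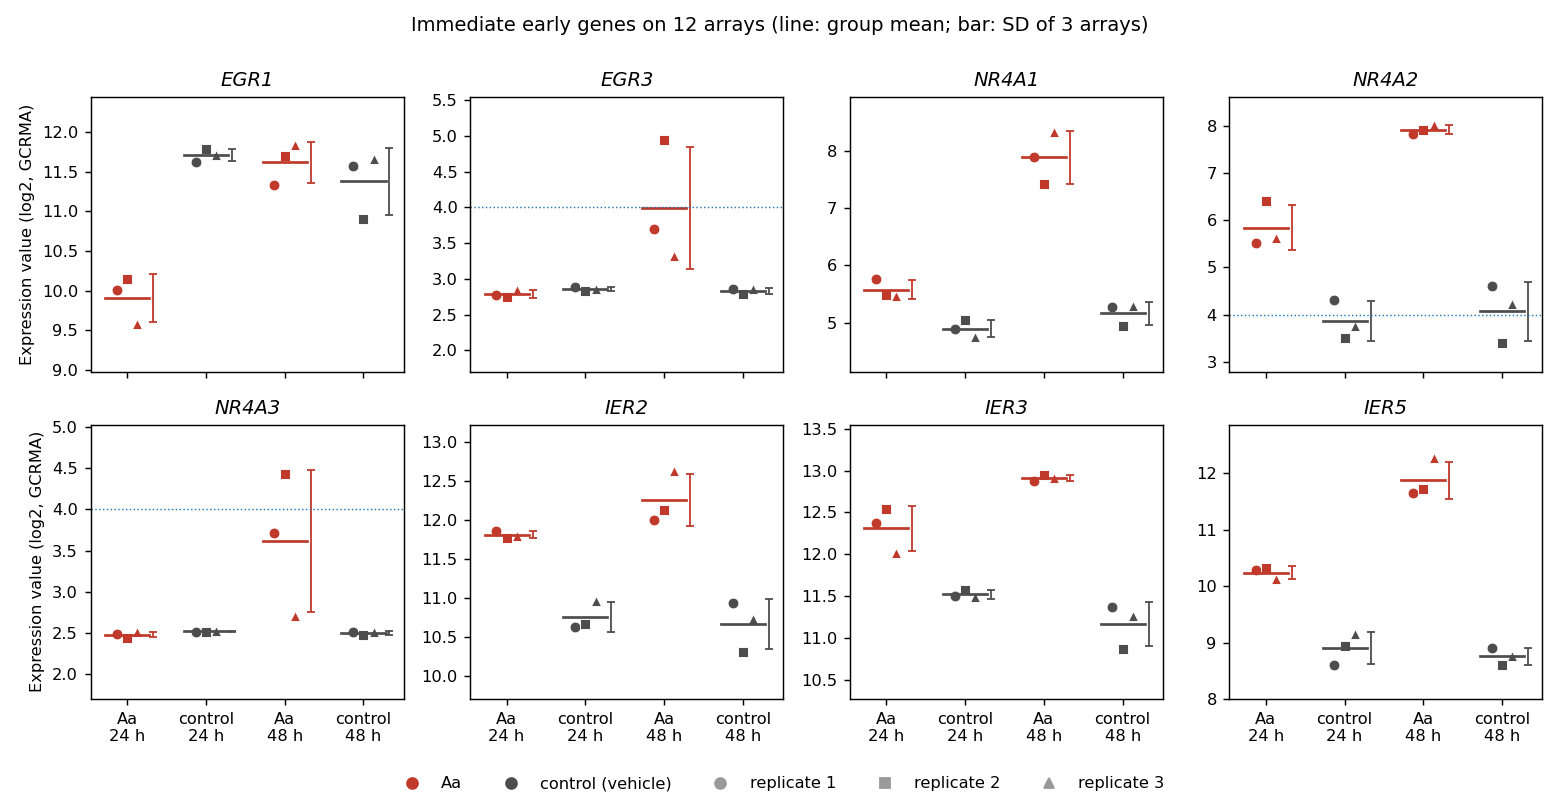
Expression values (log2, GCRMA) of the 8 genes on each of the 12 arrays, with Aa left of its control at each time. Points are arrays, with the shape giving the replicate number; lines are group means, bars are the SD of 3 arrays and the dotted line is log2 4. EGR1 is low only in Aa cells at 24 h, whereas NR4A1, NR4A2, IER2, IER3 and IER5 are highest in Aa cells at 48 h.

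EGR1, the transcription factor that gives the EGR family its best-studied member, read 10.01, 10.15 and 9.58 on the 3 Aa arrays at 24 h, against 11.62, 11.79 and 11.71 on the control arrays. The groups did not overlap, and EGR1 fell by 1.79 on the log2 scale (SE 0.217, limma adjusted p = 5.89e-05), a level 3.46-fold lower in Aa cells. At 48 h EGR1 read 11.33, 11.70 and 11.84 in Aa cells and 11.57, 10.90 and 11.66 in control cells. These groups overlapped, and the log2 change was 0.25 with a 95% interval of -0.23 to 0.73 (limma adjusted p = 0.343). The 48 h change exceeded the 24 h change by 2.04 (SE 0.307, limma adjusted p = 0.00269). Within Aa cells EGR1 was 3.27-fold higher at 48 h than at 24 h (adjusted p = 0.000425), a comparison that shares its Aa arrays with those above. In control cells the difference between 48 h and 24 h was -0.33 (adjusted p = 0.465).

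In order of level, EGR1 was lowest in Aa cells at 24 h (9.91 ± 0.30, SD, n = 3), and the 3 higher groups lay close together. These were control at 48 h (11.38 ± 0.42), Aa at 48 h (11.62 ± 0.26) and control at 24 h (11.71 ± 0.08), and their ranges overlapped. A second probe set, 201694_s_at, followed the same course, with 7.02 ± 0.64 in Aa cells and 8.52 ± 0.08 in control cells at 24 h (log2 change -1.50, adjusted p = 0.00199 with every probe set tested as its own feature). Its 48 h change was 0.26 (adjusted p = 0.478 in the same fit). The third, 201693_s_at, was under log2 4 on all 12 arrays and read 3.84, 3.67 and 3.51 in Aa cells and 2.44, 2.16 and 2.17 in control cells at 48 h. When the 3 probe sets were averaged, the 48 h change of EGR1 became 0.64 (adjusted p = 0.00622). The share of all tested genes that, like EGR1, were lower at 24 h and not called at 48 h was 3.44%.

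EGR3, an EGR factor that is itself a target of growth factor and calcium signalling, was under log2 4 on 11 of 12 arrays. It read 2.77, 2.75 and 2.85 in Aa cells and 2.88, 2.83 and 2.86 in control cells at 24 h, all within background. At 48 h it read 3.70, 4.94 and 3.32 in Aa cells and 2.86, 2.79 and 2.86 in control cells. The Aa arrays lay above the control arrays at 48 h, but replicate 2 alone passed log2 4. With no expression filter EGR3 had a 48 h change of 1.15 (SE 0.329, limma adjusted p = 0.0216), on values near background.

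NR4A1, which encodes NUR77, read 5.77, 5.49 and 5.47 in Aa cells at 24 h, against 4.90, 5.05 and 4.75 in control cells. It rose 1.6-fold (log2 change 0.68, SE 0.206, limma adjusted p = 0.0179), the smallest called rise among the tested members at that time. This call was lost with hybridisation-control scaling (log2 change 0.40, adjusted p = 0.206), when all probe sets of the gene were averaged (0.28, adjusted p = 0.06), without Aa replicate 1 at 24 h (0.58, adjusted p = 0.0676) and without control replicate 3 at 24 h (0.60, adjusted p = 0.0628). At 48 h NR4A1 read 7.89, 7.41 and 8.33 in Aa cells and 5.28, 4.94 and 5.29 in control cells. The gap had widened to 6.53-fold (log2 change 2.71, SE 0.206, limma adjusted p = 1.1e-06), and the 48 h change exceeded the 24 h change by 2.03 (SE 0.291, adjusted p = 0.00224). From highest to lowest, the order was Aa at 48 h (7.88 ± 0.46), Aa at 24 h (5.58 ± 0.16), control at 48 h (5.17 ± 0.20) and control at 24 h (4.90 ± 0.15), with overlap between the control groups only (SD, n = 3 each).

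The probe sets of NR4A1 disagreed in size. The one used, 202340_x_at, carries the manufacturer's suffix for probes that may also match other transcripts, as does 211143_x_at. That second probe set averaged 5.46 ± 0.15 in Aa cells and 5.29 ± 0.04 in control cells at 24 h, and 5.69 ± 0.27 in Aa cells and 5.37 ± 0.02 in control cells at 48 h. Its Aa arrays lay above its control arrays at both times, but neither change passed (adjusted p = 0.342 and 0.0595 with every probe set tested as its own feature). The third, 210226_at, stayed between 2.15 and 2.19 on all arrays. The mean over the 3 probe sets gave a 48 h change of 1.01, which still passed (adjusted p = 1.64e-05). Its difference between times was 0.73 (limma adjusted p = 0.012). For 211143_x_at alone that difference was 0.16 and did not pass (limma adjusted p = 0.62 with every probe set tested as its own feature).

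NR4A2, which encodes NURR1, had the largest rise of the tested members at both times, and its control values lay around the background limit. At 24 h it read 5.51, 6.40 and 5.63 in Aa cells and 4.32, 3.50 and 3.75 in control cells. It was at least 3.34-fold higher, with 2 of 3 control arrays under log2 4 and entered at that value (log2 change 1.99, SE 0.323, limma adjusted p = 0.000443). At 48 h it read 7.83, 7.92 and 8.01 in Aa cells and 4.60, 3.39 and 4.23 in control cells, a rise of at least 12.5-fold, since 1 of the 3 control values lay below log2 4 (log2 change 3.85, SE 0.323, limma adjusted p = 2.18e-06). The change at 48 h exceeded that at 24 h by 1.86 (SE 0.456, adjusted p = 0.0195). The order was Aa at 48 h (7.92 ± 0.09), Aa at 24 h (5.84 ± 0.48), control at 48 h (4.07 ± 0.62) and control at 24 h (3.86 ± 0.42), with overlap between the control groups only. All 3 probe sets of NR4A2 rose at both times, with log2 changes of 1.90 to 2.53 at 24 h and 3.48 to 4.34 at 48 h. Their largest adjusted p, over all probe sets tested, was 0.00102 at 24 h and 8.46e-06 at 48 h, both for 204622_x_at. That probe set was under log2 4 on every control array and entered this fit only through Aa arrays. Probe set 204621_s_at also needed Aa arrays to pass the filter. Such selection favoured the rises of both, so their calls add no independent support to the probe set used. For 204622_x_at the difference between times did not pass in that fit (1.58, adjusted p = 0.0512).

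NR4A3, which encodes NOR1, behaved like EGR3 in its values. The probe set used read 2.49, 2.44 and 2.51 in Aa cells and 2.51, 2.51 and 2.53 in control cells at 24 h. At 48 h it read 3.72, 4.43 and 2.71 in Aa cells and 2.51, 2.48 and 2.51 in control cells, again with replicate 2 alone over log2 4. A second probe set, 207978_s_at, read 2.42, 3.91 and 2.18 in Aa cells and 2.05, 2.04 and 2.05 in control cells at 48 h. Both probe sets were thus highest in replicate 2, the replicate in which EGR3 was also highest. The third stayed between 2.17 and 2.21. With no expression filter the 48 h change of NR4A3 was 1.12 (SE 0.334, limma adjusted p = 0.0263), also near background.

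**Figure D2:**
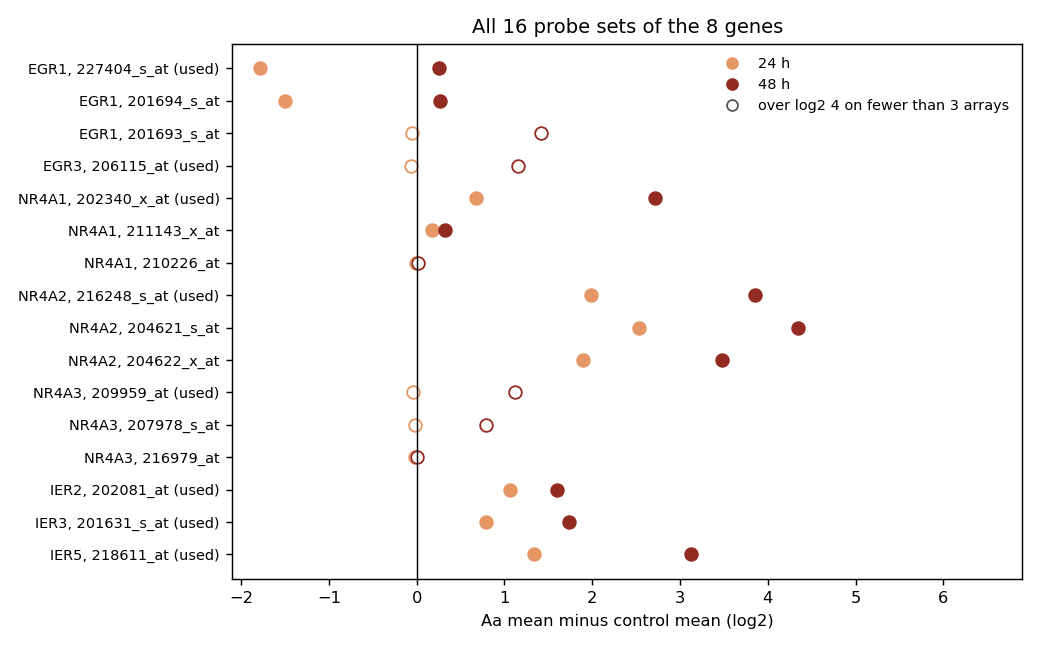
Difference between the Aa and control means (log2) at 24 h and 48 h for each of the 16 probe sets, where open circles mark probe sets over log2 4 on fewer than 3 arrays. The 3 probe sets of NR4A2 lie together, whereas those of NR4A1 lie between 0.01 and 2.71 at 48 h.

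IER2 read 11.86, 11.77 and 11.79 in Aa cells and 10.62, 10.66 and 10.96 in control cells at 24 h. It rose 2.08-fold (log2 change 1.06, SE 0.189, limma adjusted p = 0.000837). At 48 h it read 12, 12.13 and 12.62 in Aa cells and 10.93, 10.30 and 10.73 in control cells, a 3.03-fold rise (log2 change 1.6, SE 0.189, limma adjusted p = 2.67e-05). For IER2 alone the test of the difference between times did not pass, at 0.54 with a 95% interval of -0.05 to 1.13 (adjusted p = 0.175). Aa at 48 h (12.25 ± 0.33) and Aa at 24 h (11.81 ± 0.05) headed its order and did not overlap, although their difference of 0.45 did not pass (adjusted p = 0.101). The control groups at 24 h (10.75 ± 0.19) and 48 h (10.66 ± 0.32) overlapped.

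IER3, the stress gene also known as IEX-1, read 12.37, 12.54 and 12.02 in Aa cells at 24 h, against 11.50, 11.57 and 11.49 in control cells. The rise was 1.73-fold (log2 change 0.79, SE 0.152, limma adjusted p = 0.00135). At 48 h the values were 12.87, 12.95 and 12.91 in Aa cells and 11.37, 10.87 and 11.26 in control cells, which was 3.35-fold higher in Aa cells (log2 change 1.74, SE 0.152, limma adjusted p = 2.86e-06). The 48 h change was larger by 0.96 (SE 0.215, adjusted p = 0.0136). IER3 rose by 0.60 within Aa cells from 24 h to 48 h (adjusted p = 0.0139), and its value of -0.35 within control cells did not pass (adjusted p = 0.27). The groups ranked as Aa at 48 h (12.91 ± 0.04), Aa at 24 h (12.31 ± 0.27), control at 24 h (11.52 ± 0.05) and control at 48 h (11.17 ± 0.26), and no neighbouring ranges overlapped. With hybridisation-control scaling the rise within Aa cells was 0.13 (adjusted p = 0.538) and the difference within control cells was -0.67 (adjusted p = 0.0285).

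IER5 had the smallest adjusted p of the tested members at 48 h. At 24 h it read 10.29, 10.32 and 10.12 in Aa cells and 8.61, 8.94 and 9.16 in control cells, a 2.53-fold rise (log2 change 1.34, SE 0.181, limma adjusted p = 0.000123). At 48 h it read 11.65, 11.72 and 12.26 in Aa cells and 8.90, 8.60 and 8.77 in control cells, an 8.67-fold rise (log2 change 3.12, SE 0.181, limma adjusted p = 1.7e-07). The 48 h change exceeded the 24 h change by 1.78 (SE 0.256, adjusted p = 0.00225). Aa at 48 h (11.87 ± 0.33) stood above Aa at 24 h (10.24 ± 0.11), and both stood above the overlapping control groups at 24 h (8.90 ± 0.28) and 48 h (8.76 ± 0.15). Its log2 change was larger than that of 98.2% of tested genes at 48 h.

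**Figure D3:**
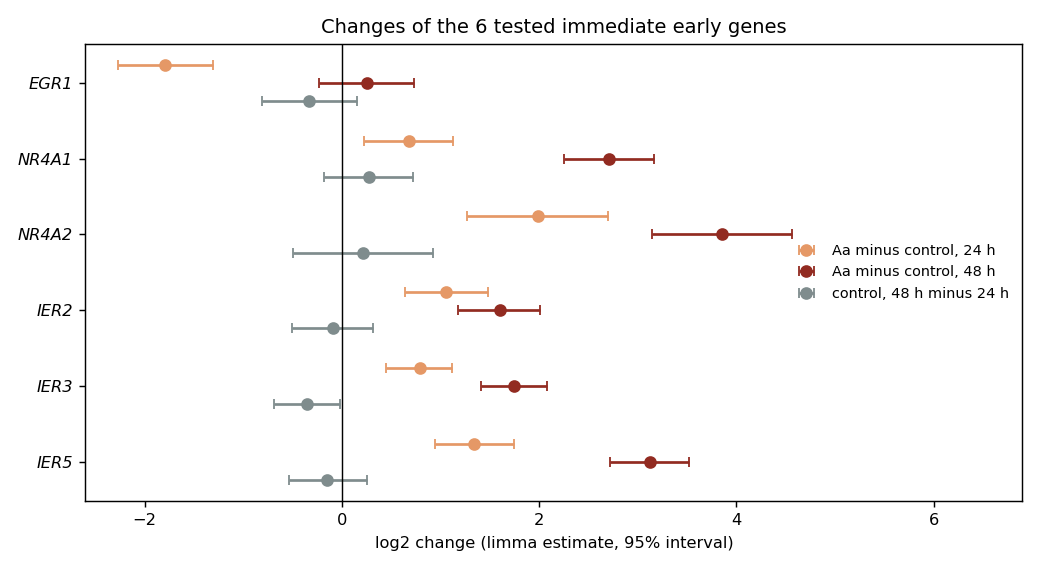
Log2 changes of the 6 tested members, with 95% intervals from limma, for Aa against its control at either time and for the 2 control times (48 h minus 24 h). EGR1 alone lies below 0 at 24 h (-1.79), and the intervals of the other 5 genes lie above 0 at both times.

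The test of the difference between times asked whether the response to Aa changed from 24 h to 48 h. It was positive for 5 of 6 tested members (EGR1, NR4A1, NR4A2, IER3 and IER5), where 6.8% of all tested genes had a positive and 12.7% a negative difference (19.5% in either direction, 2179 genes, and 4314 with the replicate number as a block). For NR4A1, NR4A2, IER3 and IER5 a rise grew, whereas for EGR1 a fall was no longer seen. These 5 calls held under the alternatives that gave a value, with adjusted p of at most 0.049, and IER2 did not pass under any. The control cells alone, at 48 h against 24 h, gave 0 of 6 calls by limma, where 0.635% of all tested genes were called. At an unadjusted limma p under 0.05 IER3 alone was lower. In Aa cells, which share their arrays with the other comparisons, 5 of 6 rose from 24 h to 48 h, where 9.65% of all tested genes rose.

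The values above hold relative to the authors' scaling. Scaling the arrays to the 18 spiked-in hybridisation controls moved the median log2 change of all tested genes by -0.28 at 24 h and -0.44 at 48 h, and by -0.16 for the difference between times. Under that scaling, with no allowance for the shift, 4 of 6 members rose and 1 fell at 24 h (all tested genes 14.9% and 34.5%), 5 of 6 rose at 48 h (all tested genes 16.2%), and the 48 h change of EGR1 was -0.19 (adjusted p = 0.449).

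Regulators of these genes were then examined in lists of other genes. Of all tested genes, 26.3% rose and 22.8% fell at 24 h, and 30.6% rose and 33.9% fell at 48 h. Of 6 serum response factor genes, 2 fell and 4 did not pass at 24 h, and 4 fell and 1 rose at 48 h, with medians of -0.26 and -0.58. With the replicate number as a block, 1 rose and 3 fell at 24 h, and the rise at 48 h, that of SRF, was lost without Aa replicate 1, control replicate 2 or control replicate 3 at 48 h. The ETS repressor ELK3, which represses at serum response elements until it is phosphorylated by ERK, averaged 7.27 ± 0.25 in Aa cells and 8.97 ± 0.16 in control cells at 24 h (log2 change -1.70, adjusted p = 6.46e-05), and its 48 h change was -0.86 (adjusted p = 0.00396). SRF itself had changes of 0.25 (adjusted p = 0.0962) at 24 h and 0.35 (adjusted p = 0.0211) at 48 h, and ELK1 did not pass at either time. The SRF coactivator MRTFB was lower at 48 h, at 7.12 ± 0.49 in Aa cells and 8.92 ± 0.16 in control cells (log2 change -1.80, adjusted p = 4.11e-05). MRTFA, counted as a fall at both times, lay near background. At 48 h it averaged 3.48 ± 0.10 in Aa cells and 4.08 ± 0.26 in control cells. The 2 falls of this list at 24 h became 1 with a filter at log2 6. With all probe sets of a gene averaged, 1 fell at 24 h and 2 at 48 h. Of 10 measured ERK cascade genes, from 15 listed, 1 rose and 3 fell at 24 h, and 2 rose and 3 fell at 48 h, with medians of -0.26 and -0.09. With the replicate block 2 rose and 5 fell at 24 h, and without control replicate 2 at 48 h 2 rose at 24 h. Hybridisation-control scaling gave 5 falls at 24 h and 5 at 48 h, where 34.5% and 52.7% of all tested genes fell. EGFR, the receptor for the growth factor in the medium, fell by 1.03 at 24 h and by 1.10 at 48 h (adjusted p = 5.21e-06 and 1.79e-06). MAPK7, which encodes ERK5, rose by 1.28 and 1.57 at those times (adjusted p = 8.46e-05 and 1.03e-05).

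The corepressor gene NAB2, which EGR proteins are known to induce, was lower at both times, with log2 changes of -0.62 at 24 h and -0.85 at 48 h (adjusted p = 0.0315 and 0.00462). The 24 h call of NAB2 was lost with no expression filter (adjusted p = 0.0711) and without Aa replicate 2 or 3 or control replicate 1 or 3 at 24 h (log2 changes -0.6 to -0.53, adjusted p = 0.0768 to 0.102). NAB1 rose by 0.46 at 24 h (adjusted p = 0.0091) and had a change of 0.08 at 48 h (adjusted p = 0.599). The 24 h call of NAB1 was lost with hybridisation-control scaling and when all probe sets of a gene were averaged. Among 13 measured genes of 16 listed as EGR1 targets, 3 rose and 4 fell at 24 h and 3 rose and 3 fell at 48 h, with medians of -0.12 and -0.13. The shares of all tested genes were 26.3% higher and 22.8% lower at 24 h, and 30.6% higher and 33.9% lower at 48 h. The 4 falls at 24 h became 2 without Aa replicate 2, 1 without Aa replicate 3 and 1 without control replicate 1 at 24 h. Those falls also became 1 with no expression filter and 2 without probe sets ending _s_at or _x_at. The 3 rises at 48 h became 5 with the replicate block, and the 3 falls became 5 with hybridisation-control scaling. PDGFA, a growth factor gene, rose by 1.57 at 24 h (adjusted p = 3.94e-05) and changed by -0.19 at 48 h (adjusted p = 0.373). TGFB1 fell by 1.00 at 24 h (adjusted p = 0.042) and changed by -0.26 at 48 h (adjusted p = 0.563). The 24 h call of TGFB1 was lost with no expression filter and without Aa replicate 3 or control replicate 1 at 24 h.

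Of 12 tested genes of the cyclic AMP and CREB pathway, from 15 listed, 5 rose and 2 fell at 24 h, and 3 rose and 5 fell at 48 h, with medians of 0.04 and -0.03. The shares of all tested genes were 26.3% higher and 22.8% lower at 24 h, and 30.6% higher and 33.9% lower at 48 h. The 5 rises at 24 h became 3 without Aa replicate 2 or 3 or control replicate 1 or 3 at 24 h or control replicate 1 at 48 h, and also under 5 other alternatives, including hybridisation-control scaling. Without probe sets ending _s_at or _x_at, the 3 rises at 48 h became 1 and the 2 falls at 24 h became 1. CREM, which encodes activators and the inducible repressor ICER, averaged 8.57 ± 0.18 in Aa cells and 7.18 ± 0.47 in control cells at 24 h, and 9.59 ± 0.13 in Aa cells and 7.05 ± 0.57 in control cells at 48 h (log2 changes 1.39 and 2.55, adjusted p = 0.00179 and 1.53e-05). CRTC2, a CREB coactivator, rose by 1.43 and 2.03 (adjusted p = 0.000766 and 3.64e-05). The probe sets used for CREM and the kinase gene SIK3, the other rises at 48 h, end in _s_at, and that of CRTC2 does not. Without probe sets of that kind, neither CREM nor SIK3 was called higher at 24 h or at 48 h. CREB1 had changes of 0.41 and -0.56 (adjusted p = 0.0478 and 0.00858), the first of which was 0.13 with hybridisation-control scaling (adjusted p = 0.576). PRKACB, a catalytic subunit of protein kinase A, fell by 0.92 and 1.51 (adjusted p = 0.00055 and 9.33e-06). The kinase gene SIK1, itself a CREB target, fell by 1.00 at 24 h (adjusted p = 0.00232) and had a change of 0.51 at 48 h (adjusted p = 0.0523). Its fall at 24 h was the call lost without probe sets ending _s_at or _x_at. Of the NR4A partners, RXRA fell by 2.51 at 48 h (7.01 ± 0.82 in Aa cells and 9.52 ± 0.40 in control cells, adjusted p = 7.99e-05), RXRB rose by 0.63 and 0.69 (adjusted p = 0.00366 and 0.00143), and RXRG was under log2 4. Both calls of RXRB were lost with hybridisation-control scaling. That at 24 h was also lost when all probe sets of a gene were averaged.

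Immediate early transcripts are degraded through AU-rich elements, and of 8 tested factors that destabilise or, as ELAVL1 is known to, stabilise them 1 rose and 7 did not pass at 24 h, while 2 rose and 5 fell at 48 h, with medians of -0.12 and -0.45. The shares of all tested genes were 26.3% higher and 22.8% lower at 24 h, and 30.6% higher and 33.9% lower at 48 h. With the replicate block 2 of these factors rose and 2 fell at 24 h. At that time 2 rose without Aa replicate 2 and 1 fell without Aa replicate 3. The 5 falls at 48 h became 1 when all probe sets of a gene were averaged. They became 3 without probe sets ending _s_at or _x_at. The 2 rises at 48 h became 0 with hybridisation-control scaling. That scaling also gave 0 rises and 4 falls at 24 h, where 34.5% of all tested genes fell. ZFP36, which encodes tristetraprolin, rose by 0.41 and 0.78 (adjusted p = 0.0058 and 5.36e-05), whereas HNRNPD, which encodes the decay factor AUF1, had a change of -0.23 at 24 h (adjusted p = 0.0729) and fell by 0.75 at 48 h (adjusted p = 5.42e-05). Of the family relatives, IER5L rose by 1.02 at 48 h (adjusted p = 0.00202) with a 24 h change of 0.27 (adjusted p = 0.348), and EGR4 was under log2 4. With hybridisation-control scaling the calls of ZFP36 at both times and of IER5L at 48 h were lost. The counts of these short lists moved with the processing, by over 1.5 times in 61 of 828 counts recomputed over all lists, none of them for the list described next.

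Among 30 tested immediate early genes of other families, from 34 listed, 12 rose and 7 fell at 24 h, and 20 rose and 6 fell at 48 h. Their median log2 change was 0.25 at 24 h and 1.12 at 48 h, and 0.84 for the difference between times, in which 14 were positive and 3 negative. Of all tested genes, 26.3% rose and 22.8% fell at 24 h, and 30.6% rose and 33.9% fell at 48 h. Their difference between times was positive in 6.8% and negative in 12.7%. FOS, FOSB and FOSL1, which encode partners of JUN in the AP-1 factor, did not pass at 24 h and rose at 48 h. FOSB averaged 7.47 ± 0.32 in Aa cells at 48 h and was under log2 4 in the other groups. It thus entered the test only through those Aa arrays. That selection favoured its rise at 48 h and its positive difference between times, both counted above. FOS averaged 4.93 ± 0.37 in Aa cells and 4.71 ± 0.17 in control cells at 24 h, and 8.80 ± 0.46 in Aa cells and 4.60 ± 0.11 in control cells at 48 h, a difference between times of 3.97 (adjusted p = 0.000114). The stress factor gene ATF3 rose by 5.30 at 24 h and 6.87 at 48 h (adjusted p = 5.08e-07 and 4.76e-08). CCN1, PLK2 and ID1 fell at 24 h with EGR1, by 0.94, 0.88 and 0.61 (adjusted p = 0.00543, 0.000851 and 0.0127). At 48 h CCN1 and PLK2 did not pass (adjusted p = 0.0854 and 0.589), and ID1 rose by 0.50 (adjusted p = 0.0256). MYC, SGK1, MCL1 and TRIB1 fell at both times, TRIB1 by 0.80 and 1.73 (adjusted p = 0.00322 and 9.65e-06). NFKBIZ rose by 1.19 at 24 h (adjusted p = 0.000599) and changed by 0.16 at 48 h (adjusted p = 0.52), a difference between times of -1.04 (adjusted p = 0.0301). KLF6 rose by 1.15 and 0.67 at those times, and its difference of -0.48 did not pass (adjusted p = 0.109).

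**Figure D4:**
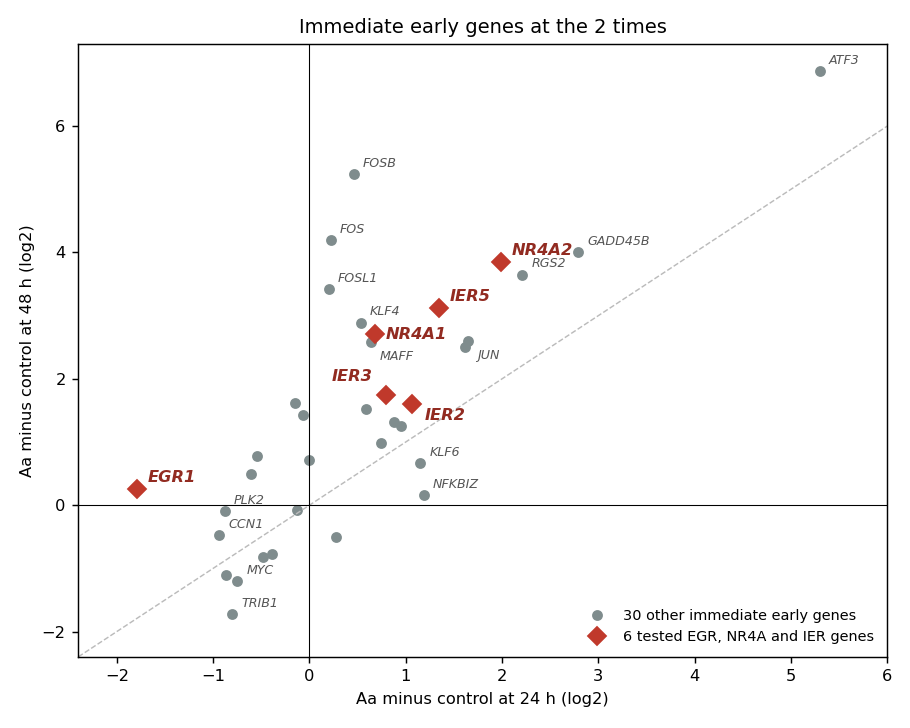
Log2 change of Aa minus control at 48 h against that at 24 h for the 6 tested members (diamonds) and 30 other immediate early genes (circles); on the dashed line both changes are equal. The 6 members lie above the line, EGR1 at -1.79 and 0.25 and NR4A2 at 1.99 and 3.85, while KLF6, NFKBIZ and TRIB1 lie below it.

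The tested genes whose values followed each member most closely over the 12 arrays were ranked by Pearson's r, with the members left out. These are descriptions over arrays of 4 shared groups and are set mostly by the differences between groups. EGR1 was closest to SNAPC5 and ME2 (r = 0.953 each) and to PTTG1 (r = 0.941), which were lower in Aa cells at 24 h and did not pass at 48 h. NR4A1 was closest to the small GTPase gene RASD1 (r = 0.990), HNRNPD-DT (r = 0.987) and DYNLT2 (r = 0.984), none of which passed at 24 h. HNRNPD-DT rose by 3.02 at 48 h (adjusted p = 3.01e-07), in the opposite direction to HNRNPD. NR4A2 was closest to PHLDA2 (r = 0.987), ATP2B1-AS1 (r = 0.977) and JMJD6 (r = 0.975). IER2 had RASSF1 (r = 0.985), GADD45B and MBD1 (r = 0.980 each) as its nearest genes, IER3 had ZNF584, CYB5D1 (r = 0.981 each) and ENC1 (r = 0.980), and IER5 had the dynein light chain gene DYNLT1 (r = 0.994), RASL11B (r = 0.993) and the adrenomedullin gene ADM (r = 0.990). Between members, the values of NR4A2 and IER5 gave the highest r (0.97), and those of EGR1 with the other 5 lay between -0.23 and 0.19.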

How the data were processed

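Expression of HK-2 cells was measured on 12 Affymetrix arrays, 3 per group. The deposited table holds log2 values made by the authors with GCRMA, per the submitters' processing notes; no source used here states its version or which arrays were normalised jointly, and the base of the logarithm was inferred from the value range (0.859 to 16.2, array medians 2.91 to 3.02). GCRMA brings arrays to nearly one distribution, which hides any shift common to most transcripts. Of 54675 probe sets 62 were controls, 41091 named 1 gene, 1801 several and 11721 none in the platform annotation; 41037 matched RefSeq (GRCh38.p14) by Entrez number. Each of 19775 genes was represented by its probe set of highest mean, and the 11184 over log2 4 on at least 3 arrays were fitted on 4 group means by limma 3.58.1 (lmFit and eBayes, R 4.3.3), with 8 residual and 2.79 prior degrees of freedom, and called at a Benjamini-Hochberg adjusted p under 0.05; every adjusted p given is from limma. The median standard error was 0.161 within a time and 0.227 for the difference between times, a precision limited by the number of arrays. The fit was tested on simulated data. In a fold given as at least a size, arrays of the dimmer group under log2 4 entered at log2 4. Members named were all 9 genes, genes of 9 fixed lists, and the 3 genes nearest each tested member. The members and lists were chosen with earlier results of these data known. Same-numbered samples of different groups deviated together (r 0.279 to 0.577 in 18 pairs, against -0.371 to -0.0286 in 36 other pairs), although the labels do not say what they shared. The main fit did not pair samples. The replicate number entered only as a block in an alternative fit. The labels call the samples biological replicates, with no further origin. No 2 arrays were identical. Alternatives covered the filter, between-array scaling, replicate block, variance moderation, groups in the fit, probe set choice, a floor and leaving out each array. Regulators without a probe set naming 1 gene were not analysed here.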

Additional observations from a re-analysis of the deposited data

Results flagged for a closer look

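For 5 tested members the response to Aa differed between 24 h and 48 h by the test of the difference itself (limma, adjusted over all tested genes), with the 48 h change the larger. EGR1 had a difference of 2.04 (adjusted p = 0.00269), NR4A1 of 2.03 (adjusted p = 0.00224), NR4A2 of 1.86 (adjusted p = 0.0195), IER3 of 0.96 (adjusted p = 0.0136) and IER5 of 1.78 (adjusted p = 0.00225). With every probe set tested as its own feature, 211143_x_at of NR4A1 (0.16, limma adjusted p = 0.62) did not pass. Nor did 204622_x_at of NR4A2 (1.58, limma adjusted p = 0.0512). Groups of 3 arrays are too small to be searched for single outlying samples.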

How the results depend on the processing

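Counts of members, of 6 tested in the main fit, held: 4 to 5 rose and 1 fell at 24 h, and 4 to 7 rose and 0 fell at 48 h by limma, over 11 alternatives and the 12 fits that each left out 1 array. The 7, of 8 then tested, came with no expression filter, which let EGR3 and NR4A3 into the test. The 4 at 48 h came from leaving out probe sets ending _s_at or _x_at, where a gene had another, which left NR4A1 under the filter and untested. Of all tested genes, 26.3% rose and 22.8% fell at 24 h, and 30.6% rose and 33.9% fell at 48 h, on the deposited scale. With hybridisation-control scaling 14.9% rose and 34.5% fell at 24 h, and 16.2% rose and 52.7% fell at 48 h. Of the recomputed member values, 665 kept direction and call, 5 lost and 2 gained a call and 7 turned sign. With hybridisation-control scaling EGR1 at 48 h turned to -0.19, NR4A1 and NR4A2 between control times to -0.05 and -0.10, and IER2 between Aa times to -0.03, none of them called. Leaving out 1 array, the value between control times ranged from -0.23 to 0.08 for IER2 and from -0.05 to 0.55 for NR4A2; it was 0.01 for IER2 without control replicate 3 at 24 h, 0.08 for IER2 without control replicate 2 at 48 h and -0.05 for NR4A2 without control replicate 1 at 48 h, none of them called. Counts over all genes moved more. The difference between times gave 2179 genes, 4314 with the replicate block and 1241 to 2597 with 1 array left out (1307 without Aa replicate 2 at 24 h, 1241 without control replicate 3 at 24 h, 1436 and 1259 without control replicates 1 and 2 at 48 h). Aa at 48 h against Aa at 24 h gave 3261 genes, 4987 with the replicate block and 6788 (253 higher, 6535 lower) with hybridisation-control scaling. Control at 48 h against control at 24 h gave 71 genes, 1669 with the replicate block, 1945 with hybridisation-control scaling, 146 with a trended robust prior, 141 with the floor, 0 with only those groups in the fit, and 9 to 545 with 1 array left out, each of which moved it by over 1.5 times. The replicate block changed no call of a tested member, but moved 6 counts of the short lists by over 1.5 times, given beside them. Hybridisation-control scaling turned the split of all tested genes at 24 h to 1668 higher and 3860 lower, from the 2942 and 2550 of the deposited scale, and at 48 h to 1808 and 5889, from 3423 and 3787. Beyond these, the cause was not tested. Signals under log2 4 limit EGR3, NR4A3 and the control levels of NR4A2.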

Other observations

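Deviations of the tested members from their group means were shared between genes on some arrays. On the control array of replicate 2 at 48 h all 6 tested members had their lowest value of the group, while 34.5% of all tested genes did. On the Aa array of replicate 1 at 48 h 5 of 6 had their lowest value, against 25.3% of all tested genes. On that of replicate 3 at 48 h 5 of 6 had their highest value of the group, against 37.3% of all tested genes, and the exception was IER3. Over the 12 arrays these deviations gave r = 0.87 between EGR1 and IER3, 0.86 between IER2 and IER5 and 0.14 between NR4A2 and IER5, as descriptions over arrays that share replicate numbers. Without control replicate 2 at 48 h, the 48 h change of EGR1 was 0.01 and the counts of members called at 24 h and 48 h were as with all arrays.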
